A study of Cicer arietinum with 24 samples.

Results

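Leaf was compared with seeds at stages S4 and S5 in chickpea (Cicer arietinum) of the cultivar JGK 3, a large-seeded chickpea. All plants were grown in the field and no treatment or mutation was involved. Leaf had been collected while the seeds on the plants were in mid-maturation. The seeds had been taken whole, so that seed coat and embryo were measured together. According to the study no endosperm is left by S5, and whether S4 seeds still held some is not given. S5 is the mid-maturation stage of the study, and S4 is given by the labels only as the seed stage before it. RNA sequencing had been carried out on 3 samples each of leaf, S4 and S5, which are 9 of the 24 samples of the series. For each group 1 column of FPKM values (fragments mapped to a gene, scaled by its length and by the size of the library) was deposited.

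Each value below therefore stands for 3 samples that had already been pooled. No spread between samples could be computed and no difference was tested. Genes were set apart where leaf differed by at least 2-fold on the log2(FPKM + 1) scale from the mean of S4 and S5, and for each result it is given whether both seed stages showed it. The difference between S4 and S5 was the nearest measure of a spread, although these are stages and not replicates. Differences are leaf minus seeds, so a positive value means a higher level in leaf, and those from S4 and from S5 share the same leaf column.

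Of 27966 entries with a gene identifier, 18181 (65.0%) reached 1 FPKM in at least 1 of the 3 columns and were compared, and 9785 did not. Ca_07224 was just inside this minimum with 1.00 FPKM in leaf, 0.230 FPKM at S4 and 0.0443 FPKM at S5, and Ca_06157 was just outside it with 0.652 FPKM in leaf, 0.512 FPKM at S4 and 0.998 FPKM at S5. Of the entries compared, 1608 joined several identifiers into 1 locus and 2551 carried an identifier that also occurred on another entry. Genes are named here only where the study named them or assigned them to a process. Markers of leaf or seed tissue could not be looked up by name, so the tissue labels were not checked against them.

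The leaf is the photosynthetic, sugar-exporting organ of the plant, whereas the legume seed in maturation imports sugars and amino acids and builds starch, oil and storage proteins in its cotyledons. Cell division in the embryo mostly comes before this filling period, and a programme that protects the embryo against drying follows it. DNA methylation is copied and removed throughout by families of methyltransferases and demethylases. In whole organs, fewer cells of a type and less RNA per cell cannot be told apart.

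Both seed stages stood closer to each other than to leaf. Across the 18181 entries, log2(FPKM + 1) of leaf and S4 had a Pearson correlation of 0.628 (Spearman 0.617), leaf and S5 had 0.600 (0.595), and S4 and S5 had 0.891 (0.894). These are descriptions over genes, which are not independent replicates, and the pairs with leaf share a column. The median distance of leaf from the mean of both seed stages was 1.06 on the log2 scale, against a median distance of 0.42 between S4 and S5.

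Of the entries compared, 52.3% were at least 2-fold apart between leaf and filling seeds. Leaf was higher than the mean of S4 and S5 for 4553 entries (25.0%) and lower for 4962 (27.3%), while 8666 entries were less than 2-fold apart. Against S4 alone, 4522 (24.9%) were higher and 4981 (27.4%) lower in leaf. Against S5 alone, 4727 (26.0%) were higher and 4942 (27.2%) lower in leaf. In the columns as deposited, the counts in both directions were thus of similar size at either stage. Of the 9515 entries set apart from the mean, 47.9% were higher in leaf. This depended on the scaling of the columns. Scaled to the same sum, 3981 were higher and 5712 lower in leaf than the seed mean. With the same upper quartile they were 3769 and 6023, and with median ratios 4881 and 4607.

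**Figure D1:**
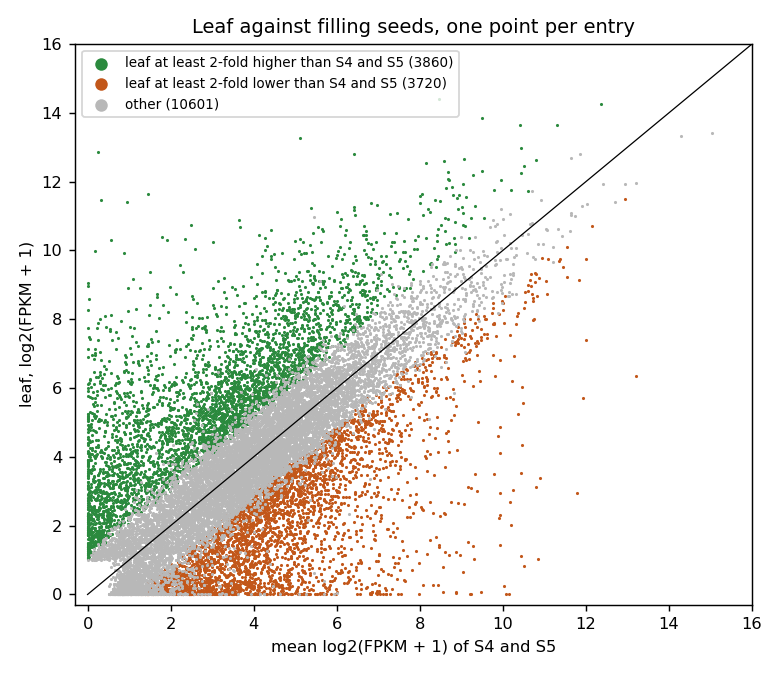
Level in leaf (vertical axis) against the mean of S4 and S5 (horizontal axis), both as log2(FPKM + 1), with 1 point for each of the 18181 entries and a line where both are equal. Entries at least 2-fold higher in leaf than at both stages (3860) lie above the line and those at least 2-fold lower than at both stages (3720) lie below it.

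The seed stages agreed for most of these genes. Of the 4553 entries higher in leaf than the seed mean, 3860 (84.8%) were at least 2-fold higher than S4 and than S5, 314 were so against S4 only and 379 against S5 only. Of the 4962 entries lower in leaf, 3720 (75.0%) were lower than both stages, 616 than S4 only and 626 than S5 only. Over all entries compared, these counts at both stages are 21.2% higher and 20.5% lower in leaf. Agreement was thus more frequent among the genes higher in leaf, and no test of that difference was possible. Its size depended on the 1 FPKM added before the logarithm. With 0.1 FPKM added instead, both stages agreed for 4197 of 5033 entries higher and 4652 of 5745 lower in leaf. With 5 FPKM added, they agreed for 2953 of 3427 higher and 2205 of 3155 lower.

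**Figure D2:**
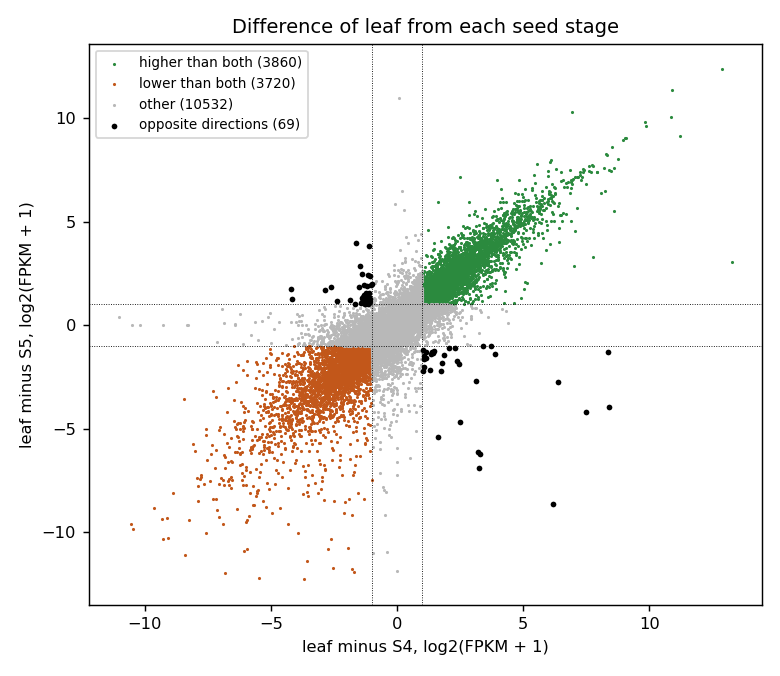
Difference of leaf from S4 (horizontal axis) and from S5 (vertical axis) on the log2(FPKM + 1) scale, 1 point per entry, with dotted lines at the 2-fold limits. The 3860 entries higher and the 3720 lower in leaf than both stages fill the upper right and lower left corners, and the 69 with opposite directions (black) lie in the other 2 corners.

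In the columns as deposited, large differences were more frequent among genes higher in leaf. At least 4-fold from both stages were 1888 entries higher and 1465 lower in leaf. At least 16-fold there were 385 higher and 285 lower, at least 64-fold 73 higher and 59 lower, and at least 256-fold 13 higher and 10 lower. Of the 1966 entries that averaged 100 FPKM or more in these columns, 29.4% were higher and 24.1% lower in leaf than at both stages. The shares were 22.5% and 21.3% of the 8976 entries averaging from 10 to below 100 FPKM. They ran the other way, 17.6% higher and 21.0% lower, among the 6306 averaging from 1 to below 10 FPKM. Below 1 FPKM they were 16.2% and 1.07% of 933 entries. This last contrast is largely built in, because the average covers 1 leaf column and 2 seed columns. With so low an average, both seed stages can rarely be 2-fold above leaf once 1 FPKM is added.

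Genes at both ends of the comparison had little transcript in the other organ. Ca_03507 had 2803 FPKM in leaf, 0.456 FPKM at S4 and 0.0597 FPKM at S5, a difference of 11.14 from the seed mean, and among the seed stages it was highest at S1 with 37.4 FPKM. Ca_03757 had 2704 FPKM in leaf, 0.454 FPKM at S4 and 1.54 FPKM at S5 (difference 10.46). At the other end, Ca_16211 had 1.06 FPKM in leaf, 1279 FPKM at S4 and 2606 FPKM at S5, a difference of -9.79. It was high around filling and low afterwards, with 1.52 FPKM at S6 and 0.159 FPKM at S7. Ca_10366 had 0.197 FPKM in leaf, 402 FPKM at S4 and 2659 FPKM at S5 (difference -9.76), and it was still at 699 FPKM at S6 and 814 FPKM at S7. The 4 genes were picked among entries at least 2-fold from both seed stages in the same direction, so agreement of the stages was a condition and not a result.

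Some entries were listed at 0 on one side, and since a 0 among FPKM values can be a failed estimate, no fold is given for them. Ca_04636 was listed at 0 in leaf and had 1404 FPKM at S4 and 907 FPKM at S5, and it is 1 of 51 entries at 0 in leaf with at least 10 FPKM at both seed stages. Ca_00196 had 528 FPKM in leaf and was listed at 0 at both S4 and S5, as 1 of 29 such entries with at least 10 FPKM in leaf. Zeros also stood between high values of neighbouring stages. Of 14 entries at 0 at S4 with at least 10 FPKM at S5, 9 also had at least 10 FPKM at S3, and of 22 at 0 at S5 with at least 10 FPKM at S4, 12 also had at least 10 FPKM at S6. Ca_24988, chosen after its values were seen, had 70.9 FPKM in leaf, 0 at S4 and 28211 FPKM at S5, next to 11140 FPKM at S3. Its difference from S4 therefore rests on a 0 that both neighbouring stages go against.

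Most entries were expressed in both organs. At 1 FPKM or more, 13953 entries were found in leaf, S4 and S5. In leaf alone there were 986, of which 269 reached 10 FPKM, and in both seed stages but not in leaf there were 1605, of which 334 reached 10 FPKM at both. Leaf shared 471 entries with S4 only and 247 with S5 only, and 584 were found at S4 alone and 335 at S5 alone. Expressed entries numbered 15657 in leaf, 16613 at S4 and 16140 at S5.

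The genes higher in leaf carried more of the leaf transcript pool than the seed genes did of theirs. The 3860 entries higher in leaf than at both stages held 56.5% of the summed FPKM of leaf, 11.96% of that of S4 and 8.06% of that of S5. The 3720 entries lower in leaf held 5.02% of the sum in leaf, 33.0% at S4 and 36.7% at S5. Because the entries were chosen by these values, the shares are a description of both sets. Of the 100 most abundant entries of leaf, 72 were at least 2-fold higher in leaf than at both stages. Of the 100 most abundant at S4, 46 were lower in leaf than at both stages, and of those at S5, 55 were. Leaf had 30 of its 100 most abundant entries in common with S4 and 22 with S5, while S4 and S5 shared 60.

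The most abundant entry differed between the organs. In leaf it was the locus joining Ca_03007, Ca_03008 and Ca_03009, with 21814 FPKM in leaf, 183 FPKM at S4 and 679 FPKM at S5, and a difference of 5.95 that both stages showed. At S4 and S5 it was Ca_28211, with 10938 FPKM in leaf, 20301 FPKM at S4 and 56211 FPKM at S5. That entry was also abundant in leaf, and it was at least 2-fold lower than S5 (difference -2.36) but not than S4 (-0.89). The 100 most abundant entries together held 30.3% of the summed FPKM in leaf, 26.4% at S4 and 34.5% at S5. The columns did not share a total: their sums were 1300269 FPKM in leaf, 953578 FPKM at S4 and 1292185 FPKM at S5.

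Followed over all seed stages, the genes lower in leaf had higher medians up to S5 than at S6 and S7. They were chosen by their levels at S4 and S5, so lower levels at other stages are partly built in. Their median was 2.60 FPKM in leaf and 15.4 FPKM at S1, 14.4 at S2, 15.8 at S3, 20.1 at S4, 21.4 at S5, 7.12 at S6 and 6.90 FPKM at S7. Of the 3720 entries, 2698 (72.5%) were also at least 2-fold lower in leaf than S3, but 1700 (45.7%) than S6 and 1714 (46.1%) than S7. Lower in leaf than at all 7 seed stages were 824 (22.2%), and 411 were at least 2-fold higher in leaf than S6 or S7, opposite to the direction at S4 and S5. Within these genes S5 was at least 2-fold over S4 for 495 and S4 at least 2-fold over S5 for 381, and 2844 were within 2-fold. Their share of the summed FPKM was 25.2% at S1, 23.9% at S2, 26.1% at S3, 26.2% at S6 and 27.9% at S7. By this share, unlike by the median, the late stages were not below S1 to S3. The columns of S6 and S7 had larger sums, 2281178 and 2379437 FPKM, and their 100 most abundant entries held 46.7% and 49.8%.

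The genes higher in leaf kept a low median in every seed stage. It was 41.7 FPKM in leaf and 8.05 FPKM at S1, 9.51 at S2, 8.04 at S3, 7.02 at S4, 6.10 at S5, 6.43 at S6 and 6.29 FPKM at S7. Of the 3860 entries, 2168 (56.2%) were at least 2-fold higher in leaf than at all 7 seed stages, and 2785 (72.2%) were higher than S6. For 242 the direction turned, with leaf at least 2-fold lower than S6 or S7. S4 was at least 2-fold over S5 for 317 of these genes and S5 over S4 for 160, and 3383 were within 2-fold.

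**Figure D3:**
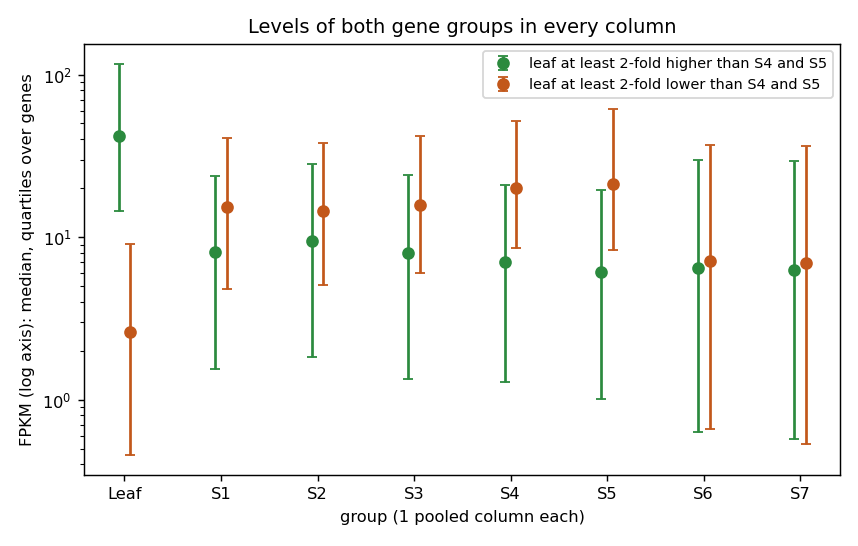
FPKM (log axis) in leaf and at the 7 seed stages, 1 pooled column each, for the 3860 entries higher and the 3720 entries lower in leaf than at S4 and S5. Points are medians and bars span the quartiles over genes. The median of the leaf-lower genes is 21.4 FPKM at S5 and 7.12 FPKM at S6, and that of the leaf-higher genes lies between 6.10 and 9.51 FPKM at all seed stages.

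A small set of 69 entries went in opposite directions at S4 and S5. In 33 leaf was at least 2-fold higher than S4 and lower than S5, of which 26 were above 0 in all 3 columns, and in 36 it was lower than S4 and higher than S5, of which 35 were above 0. Ca_13159 had 27.7 FPKM in leaf, 2.25 FPKM at S4 and 186 FPKM at S5. Ca_20831 had 16.3 FPKM in leaf, 2.07 FPKM at S4 and 444 FPKM at S5. In both, leaf lay between a low S4 and a high S5, and the level at S6 was higher still, with 258 FPKM for Ca_13159 and 3282 FPKM for Ca_20831. Ca_00395 had 8.86 FPKM in leaf, 59.0 FPKM at S4 and 1.73 FPKM at S5. Ca_07635 had 6.42 FPKM in leaf, 136 FPKM at S4 and 1.22 FPKM at S5. Here leaf lay below a high S4 and above a low S5.

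The study assigned genes to seed processes by their gene ontology terms, and to known quantitative trait loci (QTLs) for seed size and weight by their position. Many members of these lists were chosen by their expression in the same seed libraries, so the lists are not independent evidence of a direction. Of 2388 identifiers in the 6 lists, 305 were in more than 1, and 133 were shared by cell growth and differentiation (68.2% of the first and 17.2% of the second). Over all entries compared, the median difference of leaf was -0.12 from the seed mean, -0.09 from S4 and -0.08 from S5.

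Of the cell cycle genes, more were lower than higher in leaf. Of 384 identifiers, 322 entries were compared and 61 entries were below the minimum. Leaf was at least 2-fold lower than the seed mean for 131 (40.7%) and higher for 37 (11.5%), against 27.3% and 25.0% of all entries. Both stages agreed for 97 of the lower (30.1% of the list) and 30 of the higher ones (9.32%), against 20.5% and 21.2% of all entries, and the median difference was -0.80 from the mean, -0.85 from S4 and -0.69 from S5. Ca_16862 had 2.02 FPKM in leaf, 313 FPKM at S4 and 290 FPKM at S5 (difference -6.64), and Ca_05841 had 0.0871 FPKM in leaf, 13.3 FPKM at S4 and 11.6 FPKM at S5 (-3.63). The list was not uniform, since Ca_16463 had 50.2 FPKM in leaf, 0.928 FPKM at S4 and 0.562 FPKM at S5 (4.88). Ca_07046 was also higher in leaf, with 35.4 FPKM against 1.11 FPKM at S4 and 1.39 FPKM at S5 (4.02).

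Cell growth genes showed nearly the same shares. Of 195 identifiers, 162 entries were compared and 31 were below the minimum, with 64 (39.5%) lower and 18 (11.1%) higher in leaf than the seed mean, against 27.3% and 25.0% of all entries. At both stages 49 (30.2%) were lower and 16 (9.88%) higher, against 20.5% and 21.2%. The median difference was -0.63, with -0.60 from S4 and -0.50 from S5. Ca_16850 had 0.561 FPKM in leaf, 108 FPKM at S4 and 53.9 FPKM at S5 (difference -5.63), and with its other entry added the difference was -3.67. Ca_02806 was a gene of S4 more than of S5, with 0.498 FPKM in leaf, 133 FPKM at S4 and 17.4 FPKM at S5 (-5.05). Opposite to most of the list, Ca_12720 had 166 FPKM in leaf, 4.62 FPKM at S4 and 12.2 FPKM at S5 (4.27), and Ca_13426 had 85.4 FPKM in leaf, 5.61 FPKM at S4 and 3.02 FPKM at S5 (4.07).

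Differentiation, the largest of the process lists, was less one-sided. Of 775 identifiers, 645 entries were compared and 129 were below the minimum. Leaf was lower than the seed mean for 211 (32.7%) and higher for 122 (18.9%), against 27.3% and 25.0% of all entries. At both stages 164 (25.4%) were lower and 98 (15.2%) higher, against 20.5% and 21.2%, and 5 went in opposite directions. Over the list, leaf had a median difference of -0.41 (-0.40 from S4, -0.31 from S5). Ca_20649 had 0.887 FPKM in leaf, 283 FPKM at S4 and 227 FPKM at S5 (difference -7.07). The locus joining Ca_02258, Ca_02259 and Ca_02260 had 4.16 FPKM in leaf, 387 FPKM at S4 and 382 FPKM at S5 (-6.22). A further entry that joins 2 of these identifiers had 26.5 FPKM in leaf, 20.8 FPKM at S4 and 20.9 FPKM at S5, and with both added the difference was -3.68. Higher in leaf at both stages were Ca_25805, with 72.3 FPKM in leaf, 0.358 FPKM at S4 and 0.0977 FPKM at S5 (5.91), and Ca_12139, with 70.5 FPKM in leaf, 0.399 FPKM at S4 and 0.0706 FPKM at S5 (5.87).

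Grain filling genes were lower in leaf in number but not in sum. Of 188 identifiers, 170 entries were compared and 18 were below the minimum, with 74 (43.5%) lower and 40 (23.5%) higher in leaf than the seed mean, against 27.3% and 25.0% of all entries. At both stages 54 (31.8%) were lower and 34 (20.0%) higher, against 20.5% and 21.2%, so the share higher in leaf was near that of all entries. The median difference was -0.76, but it was -0.60 from S4 and -0.31 from S5 taken singly. The summed level of the list was 25845 FPKM in leaf, 11185 FPKM at S4 and 18401 FPKM at S5, and the locus joining Ca_03513 and Ca_03514 alone gave 8129 FPKM of it in leaf.

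Among the grain filling genes named, the seed stages could differ widely from each other. Ca_12229 had 0.0514 FPKM in leaf, 2.61 FPKM at S4 and 3680 FPKM at S5. Its difference was -1.78 from S4 and -11.77 from S5, which are of very unequal size. The same direction at both stages was a condition for picking the genes at the ends of each list. The locus joining Ca_03834 and Ca_03835 had 6.74 FPKM in leaf, 283 FPKM at S4 and 3395 FPKM at S5 (difference -6.99). Ca_26807 had 218 FPKM in leaf, 2.26 FPKM at S4 and 13.8 FPKM at S5 (4.98), but 197 FPKM at S6, near the leaf level. Ca_06799 had 120 FPKM in leaf, 4.88 FPKM at S4 and 1.69 FPKM at S5 (4.93), and with its other entry added the difference was 5.28.

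Desiccation genes had nearly equal counts in both directions in the columns as deposited, as all entries did. Of 162 identifiers, 144 entries were compared and 18 were below the minimum. Leaf was lower than the seed mean for 45 (31.2%) and higher for 43 (29.9%), against 27.3% and 25.0% of all entries. At both stages 29 (20.1%) were lower and 36 (25.0%) higher, against 20.5% and 21.2%, and 1 entry went in opposite directions. The median difference was 0.16 (0.04 from S4, 0.15 from S5), and it fell on the other side of 0 in 3 of 14 other settings, which included scaling the columns to the same sum and to the same upper quartile. Ca_04405 had 1282 FPKM in leaf, 2.58 FPKM at S4 and 6.32 FPKM at S5 (7.97). Ca_01556 had 149 FPKM in leaf, 0.467 FPKM at S4 and 2.68 FPKM at S5 (6.02), although the late seed was above leaf with 284 FPKM at S6 and 278 FPKM at S7. On the lower side, Ca_19118 had 1.70 FPKM in leaf, 1272 FPKM at S4 and 744 FPKM at S5 (-8.49), and Ca_23132 had 0.491 FPKM in leaf, 66.8 FPKM at S4 and 365 FPKM at S5 (-6.72), before 1938 FPKM at S6.

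Genes within QTLs for seed size and weight had shares near those of all entries. Of 1027 identifiers, 878 entries were compared and 135 were below the minimum, with 234 (26.7%) lower and 196 (22.3%) higher in leaf than the seed mean, against 27.3% and 25.0% of all entries. At both stages 182 (20.7%) were lower and 166 (18.9%) higher, against 20.5% and 21.2%, and 7 went in opposite directions. The median difference was -0.15, with -0.16 from S4 and -0.14 from S5. Ca_11140 had 579 FPKM in leaf, 0.483 FPKM at S4 and 2.05 FPKM at S5 (8.09), and Ca_04405 of the desiccation list was the next in this list. Lower in leaf were Ca_04398, with 1.62 FPKM in leaf, 268 FPKM at S4 and 455 FPKM at S5 (-7.06), and Ca_20559, with 0.0635 FPKM in leaf, 73.5 FPKM at S4 and 223 FPKM at S5 (-6.93). Ca_20559 was back to 0.0252 FPKM at S6.

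**Figure D4:**
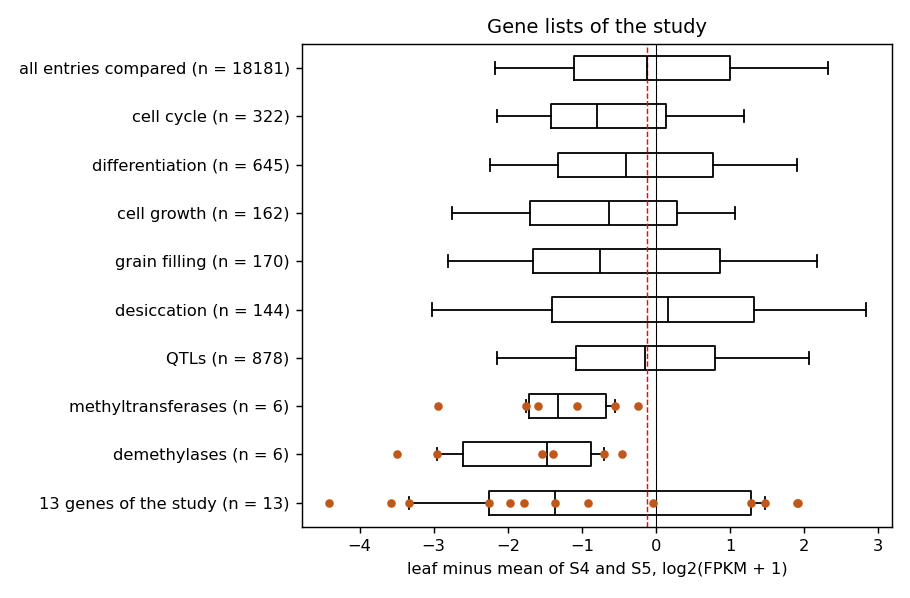
Difference of leaf from the mean of S4 and S5 on the log2(FPKM + 1) scale for each gene list and for all entries compared. Boxes span the quartiles with the median as a line, whiskers run between the 10th and 90th percentiles over genes, points show each member of the 3 small lists, and the dashed line marks the median of all entries (-0.12). The medians of cell cycle (-0.80) and grain filling (-0.76) lie below it and that of desiccation (0.16) lies above it.

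On the log2(FPKM + 1) scale, the DNA methyltransferase genes were lower in leaf than in filling seeds or within 2-fold of them, and none was at least 2-fold higher. MET1 enzymes maintain CG methylation, chromomethylases (CMT) act in CHG and CHH contexts, and DRM enzymes carry out methylation guided by small RNAs, as known from Arabidopsis. All 6 genes were compared. Leaf was lower than the seed mean by at least 2-fold for 4 of them, against 27.3% of all entries, and 3 of these were so at both stages, against 20.5%. The median difference was -1.33 from the mean, -1.30 from S4 and -0.99 from S5.

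CaCMT1 (Ca_20580) was the furthest apart, with 1.72 FPKM in leaf, 21.1 FPKM at S4 and 18.9 FPKM at S5 (difference -2.95). CaCMT3 (Ca_23587) had 0.308 FPKM in leaf, 6.33 FPKM at S4 and 1.64 FPKM at S5 (-1.75), so that both stages were above leaf while S5 was itself well below S4. CaDRM2 (Ca_03062) had 6.53 FPKM in leaf, 19.6 FPKM at S4 and 24.2 FPKM at S5 (-1.60). These are the 3 genes for which both stages passed the limit. CaDRM1 (Ca_12577), the most abundant of the family in leaf, had 7.91 FPKM in leaf, 18.7 FPKM at S4 and 16.5 FPKM at S5. Its difference of -1.15 from S4 passed the limit while that of -0.97 from S5 did not. Before 1 FPKM was added, S4 was 2.37-fold and S5 2.09-fold above leaf, so the added value brought S5 under the limit.

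CaMET1 and CaCMT2 were low in all 3 columns. CaMET1 (Ca_18432) had 1.34 FPKM in leaf, 3.21 FPKM at S4 and 1.77 FPKM at S5 (difference -0.55). CaCMT2 (Ca_17866) had 1.17 FPKM in leaf, 2.26 FPKM at S4 and 1.02 FPKM at S5 (-0.25), and its sign differed between the stages. Neither passed the limit at S4 or at S5, whereas at S1 they had stood at 11.8 FPKM and 23.4 FPKM. In FPKM itself, CaMET1 was 2.41-fold higher at S4 than in leaf, and the 1 FPKM added to each value brought this under the limit.

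Demethylase genes, whose products excise methylated cytosine in plants, were also lower in leaf, mostly with S5 as the farther stage. All 6 were compared and 4 were at least 2-fold lower in leaf than the seed mean, with 2 of them at both stages, against 27.3% and 20.5% of all entries. The median difference was -1.47 from the mean, -0.77 from S4 and -2.18 from S5. Ca_17547 had 3.18 FPKM in leaf, 43.8 FPKM at S4 and 49.0 FPKM at S5 (-3.50), the highest seed level of the family. Ca_20137 had 1.56 FPKM in leaf, 17.0 FPKM at S4 and 21.0 FPKM at S5 (-2.96). The value of Ca_20137 depends on the entry that is read, because its other entry had 10.6 FPKM in leaf, 0.137 FPKM at S4 and 0 at S5, and the difference of both entries together was -0.60, short of the limit.

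The other demethylase genes were low in leaf, and S5 passed the limit for 2 of the 4. Ca_17326 had 0.352 FPKM in leaf, 1.12 FPKM at S4 and 4.96 FPKM at S5, a difference of -0.65 from S4 and -2.14 from S5. Ca_17329 had 0.378 FPKM in leaf, 1.495 FPKM at S4 and 5.44 FPKM at S5, a difference of -0.86 from S4 and -2.23 from S5. For both of these genes S4 did not pass the limit on the log2(FPKM + 1) scale. In FPKM itself, S4 was 3.19-fold above leaf for Ca_17326 and 3.96-fold for Ca_17329. The same holds for Ca_07031 below, with S4 2.83-fold and S5 3.81-fold above leaf, all at low levels. Neither stage passed the limit for Ca_07031, with 0.371 FPKM in leaf, 1.05 FPKM at S4 and 1.41 FPKM at S5 (-0.70). Nor did either stage for Ca_08414, with 1.63 FPKM in leaf, 3.22 FPKM at S4 and 2.08 FPKM at S5 (-0.46).

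**Figure D5:**
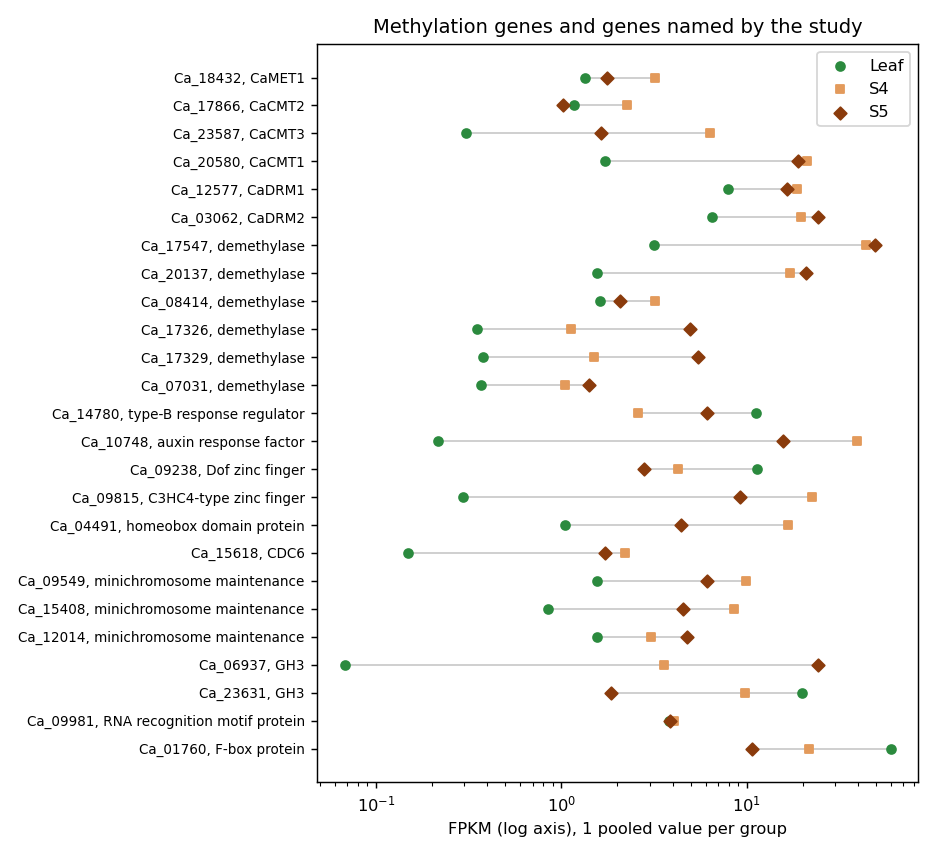
FPKM (log axis) in leaf (circles), at S4 (squares) and at S5 (diamonds) for the 12 methyltransferase and demethylase genes and the 13 other genes named in the study, with 1 pooled value per group and lines joining the values of a gene. Leaf is the lowest of the 3 for 11 of the 12 methylation genes (all but CaCMT2) and the highest for 4 of the 13 others.

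Of the 13 other genes that the study named, which it had picked among genes higher in JGK 3 seeds than in another cultivar, 7 were lower and 4 higher in leaf than the seed mean, against 27.3% and 25.0% of all entries. Both stages passed the limit for all 7 of the lower genes and for 2 of the 4 higher genes, against 20.5% and 21.2% of all entries. The transcription factors went both ways. Ca_10748, an auxin response factor, had 0.217 FPKM in leaf, 39.1 FPKM at S4 and 15.7 FPKM at S5 (difference -4.41). Ca_09815, a C3HC4-type zinc finger gene, had 0.296 FPKM in leaf, 22.6 FPKM at S4 and 9.15 FPKM at S5 (-3.58), and Ca_04491, a homeobox gene, had 1.05 FPKM in leaf, 16.6 FPKM at S4 and 4.42 FPKM at S5 (-2.25). Both stages agreed for these 3 genes, with S4 the farther one each time.

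On the other side, Ca_09238, a Dof zinc finger gene located in a QTL, had 11.3 FPKM in leaf, 4.24 FPKM at S4 and 2.79 FPKM at S5 (difference 1.46, both stages). Ca_14780, a type-B response regulator of the kind that acts in cytokinin signalling, had 11.3 FPKM in leaf, 2.58 FPKM at S4 and 6.13 FPKM at S5, and it passed the limit against S4 (1.78) but not against S5 (0.78). Both of these genes stayed above 2 FPKM in all 3 columns, whereas the auxin response factor gene was below 1 FPKM in leaf.

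The genes that license DNA replication were low in leaf. Ca_15618, a CDC6 gene, had 0.149 FPKM in leaf, 2.21 FPKM at S4 and 1.72 FPKM at S5 (difference -1.36, both stages). Among the minichromosome maintenance genes, Ca_09549 had 1.56 FPKM in leaf, 9.85 FPKM at S4 and 6.13 FPKM at S5 (-1.78), and Ca_15408 had 0.851 FPKM in leaf, 8.50 FPKM at S4 and 4.52 FPKM at S5 (-1.97). Ca_12014, of the same family, differed in having S5 as the higher stage. It had 1.55 FPKM in leaf, 3.03 FPKM at S4 and 4.74 FPKM at S5, with -0.66 from S4 and -1.17 from S5, so that S5 alone passed the limit. At S4 and S5 the first 3 of these genes were already far below S1, where they had 9.54, 63.9 and 45.4 FPKM.

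Both GH3 genes, members of a family that conjugates plant hormones such as auxin to amino acids, were more than 2-fold apart from leaf but in opposite directions. Ca_06937 had 0.0679 FPKM in leaf, 3.60 FPKM at S4 and 24.2 FPKM at S5 (difference -3.33, both stages). Ca_23631 had 19.7 FPKM in leaf, 9.82 FPKM at S4 and 1.86 FPKM at S5, with 2.86 from S5 past the limit and 0.94 from S4 short of it. Over the seed stages the 2 genes also ran opposite ways between S4 and S5, Ca_06937 being higher and Ca_23631 lower at S5.

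The last 2 genes were named for their place in QTLs. Ca_09981, which encodes a protein with an RNA recognition motif, was level with 3.83 FPKM in leaf, 4.04 FPKM at S4 and 3.87 FPKM at S5 (difference -0.04). Ca_01760, an F-box gene, had 60.0 FPKM in leaf, 21.6 FPKM at S4 and 10.7 FPKM at S5 (1.91, both stages). Its other entry had 44.0 FPKM in leaf, 39.5 FPKM at S4 and 23.1 FPKM at S5, and with both entries together only S5 passed the limit (1.60), S4 being at 0.76.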

How the data were processed

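Each deposited file held 1 FPKM column for 1 group. According to the labels and methods, read filtering by the authors used NGS QC Toolkit. TopHat aligned the reads that passed to the kabuli genome and its gene models, and Cufflinks gave the FPKM values that were deposited. Versions, how the 3 samples of a group were pooled and how columns were scaled to each other are not given in the sources used here. The columns are pooled, so a p-value could not be computed, and it is not stated that samples came from separate plants. No depth was given, and whole reads could not be recovered, since the most common ratio among low values was shared by at most 2.11% of entries. The precision of single values is therefore unknown.

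Columns were joined over 35234 entries, and 7268 entries with a locus label alone were left out. Levels were compared as log2(FPKM + 1), with at least 1 FPKM in any of the 3 columns and a limit of 2-fold. Where an identifier was on several entries, that with the highest mean over all columns was used. No identifier matched the gene name table (0 matches), and no sequence or coordinate was analysed here. Gene lists were read as identifiers from the study. The members and lists were chosen with earlier results of these data known.

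The genes named were the 12 methyltransferase and demethylase genes and 13 genes the study names, the 2 members at either end of each process list and the 2 entries at either end overall (above 0 in all 3 columns, both stages in one direction), the most abundant entry at 0 on either side, the 2 entries with the largest opposite differences for each order, the most abundant entry per column and the entries next to the minimum. Alternatives covered the pseudocount, the minimum, the limit, 3 scalings, each seed stage alone and the handling of joined, repeated, zero and unannotated entries. Python 3.11.15, pandas 2.3.3, NumPy 2.4.6, SciPy 1.17.1 and matplotlib 3.10.9 were used. The calling of genes was run on simulated data with large changes in well expressed genes and little noise. That run checks the calculation only and gives no rate of false calls for these data.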

Additional observations from a re-analysis of the deposited data

Results flagged for a closer look

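The 4 genes given here were at least 2-fold apart from leaf one way at S4 and the other way at S5, with values above 0 in all 3 columns, which is what singled them out. Whether the differences at S4 and S5 themselves differ was not tested, since each group was 1 pooled column. Ca_13159 had a difference of leaf of 3.14 from S4 and of -2.70 from S5, and Ca_20831 had 2.50 from S4 and -4.68 from S5. In both genes leaf was above S4 and below S5. Ca_00395 had -2.60 from S4 and 1.85 from S5, and Ca_07635 had -4.20 from S4 and 1.74 from S5, so that leaf was below S4 and above S5. Ca_20831 has another entry, with 0.669 FPKM in leaf, 0 at S4 and 29.6 FPKM at S5, and with both entries added the differences were 2.55 from S4 and -4.72 from S5. For each order of directions, these were the 2 genes whose smaller difference was largest among the entries in opposite directions that were above 0 in all 3 columns. Ca_24988, also in opposite directions, was listed at 0 at S4 and is not among them.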

How the results depend on the processing

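No paired analysis was possible because each column pools the 3 samples of a group, and leaving out a replicate could not be run for the same reason. Of 78 alternative values of the counts and shares over all entries, 60 stayed within 1.5 times the count, or within the 95% Wilson interval of the share. The values without a minimum are among the 60 by construction. Entries below 1 FPKM in all 3 columns cannot be 2-fold apart once 1 FPKM is added. Among entries set apart from the seed mean, the share higher in leaf (47.9%) was 46.7% with a pseudocount of 0.1 FPKM, 52.1% with a pseudocount of 5 FPKM and also with a 4-fold limit, 41.1% with columns scaled by their sums, 38.5% by their upper quartiles and 51.4% by median ratios, 48.9% against S5 alone and also with entries lacking a gene identifier, and 49.5% without repeated identifiers. With a 4-fold limit, 2260 entries were higher and 2074 lower in leaf than the mean, 1888 and 1465 at both stages, and 9 opposite. With a pseudocount of 5 FPKM, 3155 were lower than the mean, 2205 lower at both stages and 32 opposite, and with 0.1 FPKM 172 were opposite. The cause was not tested. The median of all entries, -0.12, was -0.33 under scaling by the sum, -0.40 by the upper quartile and -0.02 by median ratios. Relative to that median, the cell cycle list stood at -0.68 as deposited and between -0.70 and -0.59 under the 3 scalings, grain filling at -0.64 and between -0.68 and -0.54, cell growth at -0.51 and between -0.52 and -0.47, differentiation at -0.29 and between -0.30 and -0.27, QTLs at -0.03 and between -0.03 and -0.02, and desiccation at 0.28 and between 0.25 and 0.29. The methyltransferases stood at -1.21 in all 4 scalings, the demethylases between -1.41 and -1.19, and the 13 genes between -1.31 and -1.06. The medians of these lists, not taken relative to all entries, depended on the pseudocount. With 0.1 and 5 FPKM they were -1.43 and -0.76 for the methyltransferases, -2.55 and -0.58 for the demethylases, and -2.25 and -0.43 for the 13 genes. Of 123 alternative medians of all lists, 51 differed from the reported one by more than the SD of those from S4 alone and S5 alone. CaDRM1 (-1.06) was at -0.96 with median ratios and at -0.81 with a pseudocount of 5 FPKM, short of the limit. Of 420 alternative values for named genes, 324 differed from the reported one by less than the SD of the values from S4 alone and S5 alone, and 94 by more. The values from S4 alone and S5 alone could not fall among the 94, because the reported value is their mean. The count of 324 is therefore raised by construction. The other 2 values, of genes at least 2-fold apart from the seed mean, took the other sign. They were Ca_20831 with 2.50 against S4 alone and Ca_07635 with 1.74 against S5 alone. How far depth limits low values is unknown.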

Other observations

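Entries without a gene identifier, named by an assembled locus alone, were not part of the comparison. Of these, 2996 reached 1 FPKM in leaf, S4 or S5. Leaf was at least 2-fold higher than both stages for 774 (25.8%) and lower than both for 439 (14.7%), against 21.2% and 20.5% of the entries with a gene identifier. Such entries held 3.45% of all summed FPKM in leaf, 3.39% at S4 and 4.84% at S5. The highest of them had 2454 FPKM in leaf, 909 FPKM at S4 and 9540 FPKM at S5, each being the highest value of its own column.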
